A study of Sus scrofa with 30 samples.

Results

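Broad H3K4me3 domains of pig germinal vesicle (GV) oocytes were the H3K4me3 peaks of 5 kb or wider in GV oocyte replicate 1 on chromosomes 1 to 18 that were at least 50% covered by the peaks of GV oocyte replicate 2. Of 69431 peaks of that library on these chromosomes, 1506 were 5 kb or wider, and 904 of the 1506 passed the cover rule. The lists of all 30 libraries together hold 1828387 peaks. The 904 domains had a median width of 6155 bp (quartiles 5426 and 7404.5 bp, widest 42379 bp) and summed to 6.20 Mb.

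H3K4me3 is the trimethylation of lysine 4 of histone H3, which usually marks the starts of active or poised genes in narrow peaks. Oocytes are known for carrying it in broad domains as well, many of them far from promoters, and in mouse embryos these domains are removed around genome activation by demethylases of the KDM5 family. H3K27me3, the trimethylation of lysine 27, is laid down by Polycomb repressive complex 2 and marks silenced genes, many of which encode developmental regulators. A domain that carries both marks in a population of cells is often called bivalent, although peak lists cannot show whether the same cells or alleles carry both.

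The marks were measured by native chromatin immunoprecipitation of very few cells followed by sequencing (ULI-NChIP), with 2 libraries in each of 15 groups. The siKDM5BC group was H3K4me3 in 4-cell embryos grown from zygotes injected with small interfering RNA against KDM5B and KDM5C, and untreated 4-cell embryos were its comparison, since no library with a control siRNA is labelled. The untreated H3K4me3 groups were GV oocytes, metaphase II (MII) oocytes and 1-cell, 2-cell, 4-cell, 8-cell, morula and blastocyst embryos made by in vitro fertilisation, and the H3K27me3 groups were MII oocytes and 2-cell, 4-cell, 8-cell, morula and blastocyst embryos. Breed, age, cells per library and sequencing batch are not given in the sources used here. A batch and the knockdown therefore cannot be told apart. Nothing says that replicates came from separate animals or cultures, and p-values of tests over libraries reflect only how far these libraries spread. Tests over stage means reflect only how far the stage means spread, and leave out the spread between the libraries of a stage.

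For each library the covered share is the percentage of domain length under its peaks. The lists hold no read totals, so the depth is unknown and no counting error can be given. The rest of chromosomes 1 to 18, up to the last peak of each, was measured the same way, because total peak length differed between libraries, from 31.0 to 174 Mb for H3K4me3 and from 1.25 to 98.1 Mb for H3K27me3. Enrichment is the log2 ratio of the domain share to the share of the rest, each with 0.01 percentage points added. Of the libraries, the 1-cell pair stood apart from each other most, with 30.2% and 66.4% of domain length covered.

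The members were chosen by peak width in GV replicate 1 and peak cover in GV replicate 2, so GV values are given as a description, with no test. In GV replicate 1 the domains had a median fold over the caller's background of 3.58 and a median −log10 q of 2.53, against 3.09 and 1.62 for all its peaks on these chromosomes. Of the domains, 322 (35.6%) reached a −log10 q of 3. By the rule every domain was at least 50% covered in both GV libraries and none was under 10%, against 0.482% and 85.1% of 450980 tiles of 5 kb outside the domains. GV replicate 2 covered 72.9% of domain length, in 1.65 separate peaks per domain, and 279 of the domains were at least 50% covered by 1 peak of that library that was itself 5 kb or wider. At the edge of the rule, the narrowest 4 members were 5000 to 5004 bp wide and the widest 4 replicated peaks outside it 4993 to 4998 bp. The 4 members least covered in GV replicate 2 were at 50.02% to 50.16%, and the 4 wide peaks nearest below the rule at 49.78% to 49.95%.

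Of the 904 domains, 6 were at least 50% covered in all 30 libraries of both marks, including the H3K27me3 libraries of 2-cell embryos that were otherwise almost empty. They were the 2 widest domains, at SUSD4 (chromosome 10, 19414841 to 19457219, 42379 bp in build susScr11) and at CYB5R1 (chromosome 10, 24930524 to 24962358, 31835 bp), 2 inside EEA1 (chromosome 5, 90227258 to 90235738 and 90244164 to 90249245), 1 that lay 52125 bp from KIAA1549L (chromosome 2, 27418967 to 27424238) and 1 that lay 1269 bp from LOC397451 (chromosome 16, 23678972 to 23684295). At CYB5R1 the H3K27me3 libraries of 2-cell embryos covered 94.99% and 94.8%, and the H3K4me3 libraries of the same stage 97.0% and 99.6%. Over the 6 regions, group means of the covered share ran from 76.01% (H3K27me3 in morulae) to 99.6% (H3K4me3 in GV oocytes). Values without them are given beside some of the results they move by over 1.5 times or put in another order.

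**Figure D1:**
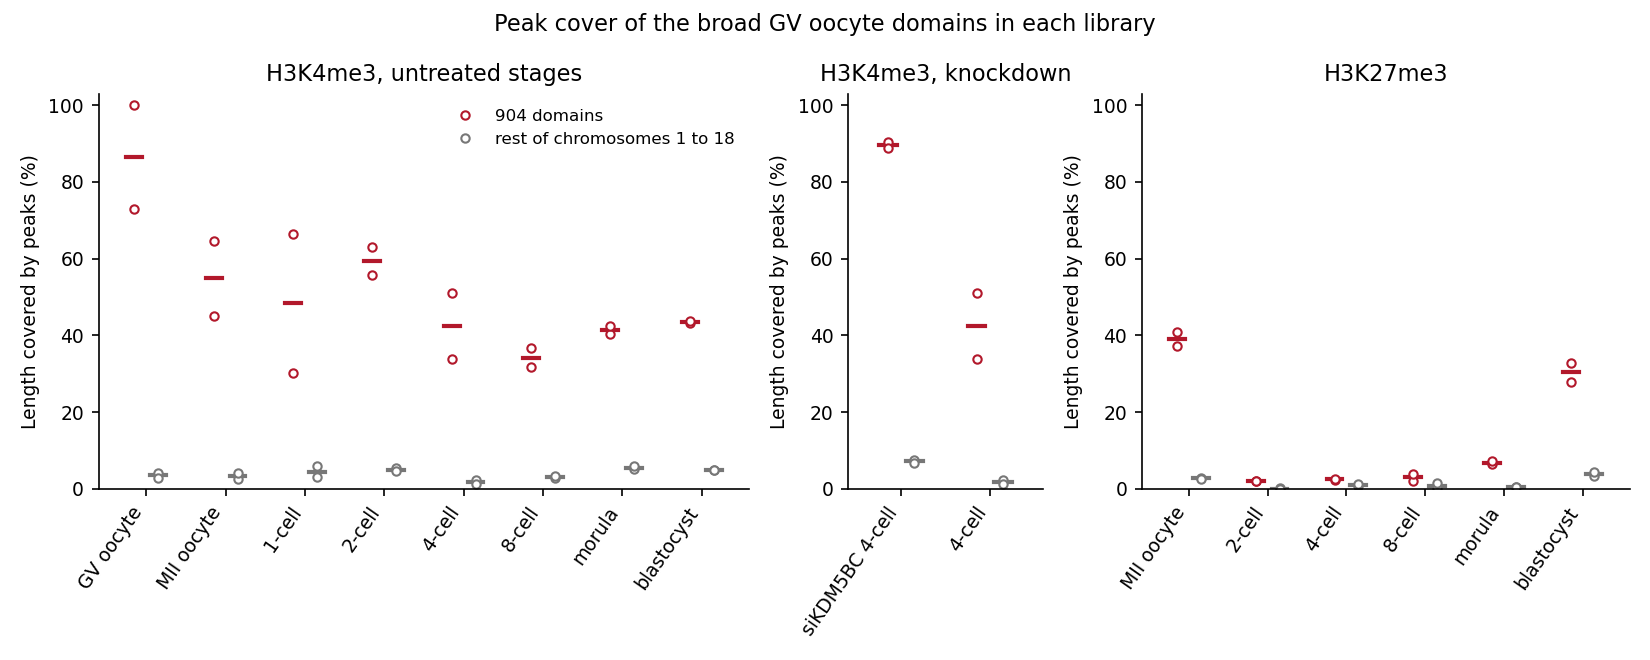
Percentage of length under peaks in each library (circles) with the mean of 2 libraries (bars), for the 904 domains (red) and the rest of chromosomes 1 to 18 (grey), by stage and mark. In siKDM5BC 4-cell embryos the domains sit near 90%, above the 33.7% and 50.9% of untreated 4-cell embryos, and H3K27me3 is near 0 from the 2-cell to the 8-cell stage.

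After the GV stage H3K4me3 peaks kept covering a large part of the domains at every untreated stage, far more than of the rest of the chromosomes. The libraries covered 45.1% and 64.6% of domain length in MII oocytes, 30.2% and 66.4% in 1-cell, 63.0% and 55.8% in 2-cell, 50.9% and 33.7% in 4-cell, 31.6% and 36.8% in 8-cell embryos, 40.3% and 42.4% in morulae and 43.2% and 43.8% in blastocysts. The replicates of the MII, 1-cell and 4-cell groups lay farther apart than those of the other stages. The rest of the chromosomes was covered to 1.28% (4-cell replicate 2) up to 5.95% (1-cell replicate 2) in the same libraries.

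The covered share did not pass its test across the 7 stages after GV. Stage means ran from 34.2% ± 3.65 in 8-cell embryos to 59.4% ± 5.10 in 2-cell embryos (SD, n = 2 each), a range of 25.2 points (one-sided permutation test of the F statistic, 14 libraries, p = 0.486; Benjamini-Hochberg (BH) value over 12 tests 0.583). From the 4-cell stage to the blastocyst, the mean of stage means was 40.3%, against 54.2% for MII oocytes to 2-cell embryos, a difference of −13.9 points (two-sided exact permutation test of the 7 stage means, p = 0.0286, the lowest this design can give; BH 0.075). It was −19.9 points without 1-cell replicate 1 and −7.83 points without 1-cell replicate 2 (exact p = 0.343). Peak strength turned this direction. It was 30.7 points when peaks under a −log10 q of 3 were left out, and 13.3 points when peaks under a fold of 3.5 were left out. At that q minimum the MII, 1-cell and 2-cell libraries covered 2.14% to 3.14% of domain length, the 4-cell libraries 38.8% and 18.01% and the blastocyst libraries 40.7% and 41.9%.

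Enrichment over the rest of the chromosomes changed across the stages. It averaged 4.04 ± 0.11 on the log2 scale in MII oocytes, 3.41 ± 0.09 in 1-cell, 3.57 ± 0.06 in 2-cell, 4.58 ± 0.18 in 4-cell and 3.47 ± 0.06 in 8-cell embryos, 2.90 ± 0.06 in morulae and 3.14 ± 0.02 in blastocysts. The range of 1.68 log2 units passed (one-sided permutation test of F, p = 4.0e-05, BH 0.00048), and leaving out any 1 library gave BH values of 0.00012 to 0.00096. The lower covered share from the 4-cell stage on did not pass its own test and turned with peak strength. It had no clear counterpart in enrichment. Of these later stages, 4-cell embryos were at 4.58 and the others at 2.90 to 3.47, against 3.41 to 4.04 in the earlier ones. Stages from 4-cell to blastocyst averaged 3.52, against 3.68 for MII oocytes to 2-cell embryos. This difference of −0.15 did not pass (two-sided exact permutation test of the stage means, p = 0.771, BH 0.771). The 4-cell lists were the shortest of all H3K4me3 lists, at 55.4 and 31.0 Mb, and their lowest peak fold was 3.11 and 3.31, against 2.60 to 3.07 in the other H3K4me3 lists after GV. The part of that difference between lists in the enrichment was not tested.

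Counted domain by domain, a domain was held by a group when both of its libraries covered at least 50% of it, and emptied when both covered under 10%. MII oocytes held 300 of 904 domains (33.2%, against 0.31% of the tiles), 1-cell embryos 181 (20.02%, tiles 0.502%), 2-cell embryos 447 (49.4%, tiles 1.01%) and 4-cell embryos 200 (22.1%, tiles 0.127%). In 8-cell embryos 183 were held (20.2%, tiles 0.482%), in morulae 333 (36.8%, tiles 2.3%) and in blastocysts 357 (39.5%, tiles 2.27%). Emptied domains were 5 in MII oocytes (0.553%, against 84.2% of tiles), 15 in 1-cell embryos (1.66%, tiles 81.4%), 11 in 2-cell embryos (1.22%, tiles 80.5%), 61 in 4-cell embryos (6.75%, tiles 91%), 147 in 8-cell embryos (16.3%, tiles 85.9%), 238 in morulae (26.3%, tiles 81.9%) and 206 in blastocysts (22.8%, tiles 84.7%). A count of held domains needs both libraries, so it was limited by the thinner one: 427 domains were at least 50% covered in 4-cell replicate 1 and 212 in replicate 2, 343 in MII replicate 1 and 649 in replicate 2, and 195 in 1-cell replicate 1 and 665 in replicate 2.

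Of the 904 domains, 25 were held at all 7 untreated stages after GV, and 198 (21.9%) at none. Tiles were not counted over all stages together. Of the 300 domains held in MII oocytes, 98 were also held in blastocysts and 98 were emptied there. Of all 904 domains, 357 (39.5%) were held in blastocysts and 206 (22.8%) emptied. Tiles were not counted for this overlap. In blastocysts, 145 domains (16.04%, against 79.4% of tiles) had no H3K4me3 peak in either library. Across the 904 domains the mean covered share of blastocysts had a Spearman's rho of 0.93 with that of morulae and −0.18 with that of MII oocytes, as a description over regions that share the same libraries.

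By width, the 32 domains of 12 kb or wider were covered to 58.4% and 77.4% in the MII libraries and to 49.9% and 49.7% in the blastocyst libraries. The 414 domains of 5 to 6 kb were covered to 43.2% and 61.2% in MII and to 45.2% and 45.6% in blastocyst libraries. The 6 regions covered in every library hold 2 of the 32 wide domains, and the other 30 were covered to 50.9% and 73.4% in MII and to 41.9% and 41.1% in blastocyst libraries, below the 5 to 6 kb domains in blastocysts.

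**Figure D2:**
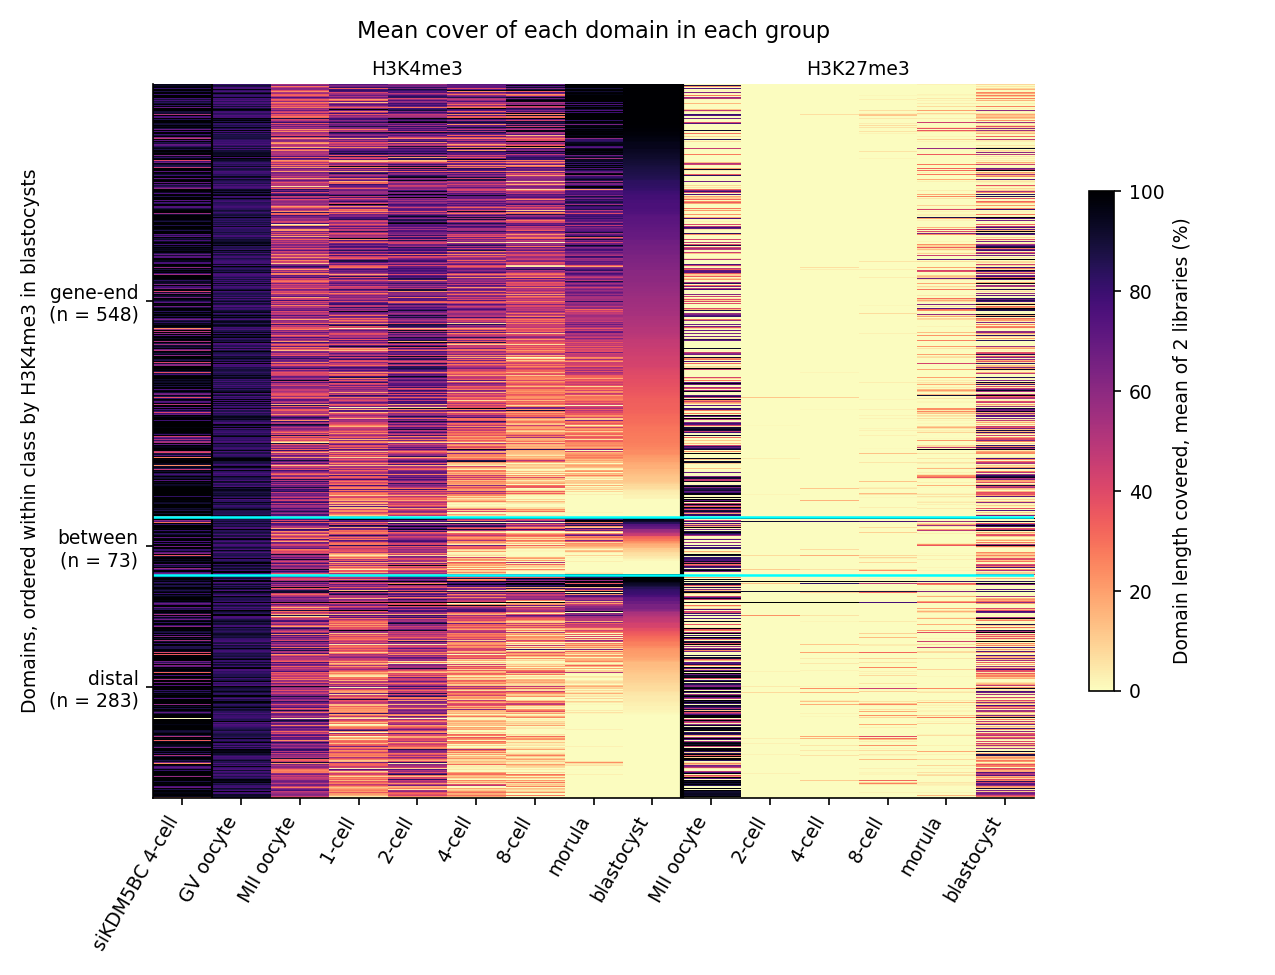
Mean covered share of each of the 904 domains (rows) in each group (columns; H3K4me3 left of the thick line with siKDM5BC first, H3K27me3 right of it), ordered within each position class by H3K4me3 in blastocysts. Blastocysts and morulae share their pattern, siKDM5BC embryos are dark in nearly all rows, and 6 of the 8 rows held by H3K27me3 at the 2-cell stage are the regions covered in every library.

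Knockdown of the H3K4 demethylases KDM5B and KDM5C asked whether these enzymes remove oocyte H3K4me3 by the 4-cell stage. The siKDM5BC libraries covered 90.3% and 88.8% of domain length, against 50.9% and 33.7% in untreated 4-cell libraries. Both siKDM5BC libraries lay above both untreated ones, by 47.2 points on average. They also lay above every untreated library after GV, of which the highest was 66.4% (1-cell replicate 2). Of the 904 domains, 845 (93.5%, against 3.79% of tiles) were held in siKDM5BC embryos and 1 was emptied (0.111%, against 80.5% of tiles).

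With 2 libraries against 2 the exact permutation test, two-sided, cannot go below p = 0.333, which it gave (BH 0.5). The difference was 38.6 points without untreated replicate 2 and 55.8 points without untreated replicate 1. With peaks of −log10 q 3 or more the siKDM5BC libraries covered 78.5% and 77.0%, against 38.8% and 18.01% in untreated embryos, and with peaks of fold 3.5 or more 86.6% and 86.4%, against 45.7% and 31.7%.

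Peaks also covered more of the chromosomes outside the domains in siKDM5BC embryos. They covered 7.45% and 6.81% of the rest of the chromosomes, against 2.31% and 1.28% in untreated 4-cell embryos. Enrichment of the domains was lower in siKDM5BC embryos, at 3.60 and 3.70 on the log2 scale, against 4.45 and 4.71 in untreated embryos, a difference of −0.93 (exact permutation p = 0.333; BH 0.5). The covered share cannot exceed 100%.

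Domain by domain, 830 of 904 (91.8%) were covered more in both siKDM5BC libraries than in both untreated 4-cell libraries, against 14.6% of tiles. Full cover in both libraries was reached by 319 domains in siKDM5BC embryos and by 3 in untreated 4-cell embryos. Tiles with full cover were not counted. The cover was also in longer stretches: the domains with a peak held 1.19 and 1.24 separate peaks in siKDM5BC libraries, against 1.77 and 1.71 in untreated ones, and the median longest unbroken stretch was 5611 and 5492 bp, against 2282.5 and 1424 bp. A single peak of 5 kb or wider covered at least 50% of 706 and 669 domains in siKDM5BC libraries, against 140 and 34 in untreated libraries.

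The peaks did not stop at the domain borders. In the 5 kb on either side, siKDM5BC libraries covered 46.0% and 43.9%, against 13.1% and 6.57% in untreated 4-cell libraries. The GV oocyte libraries themselves covered 15.4% and 19.4% of these flanks. Whether siKDM5BC cover was kept from oocytes or gained later was not tested. The median widest peak meeting a domain was 8342 and 7802 bp in siKDM5BC libraries, against 2454.5 and 1497 bp in untreated 4-cell libraries.

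**Figure D3:**
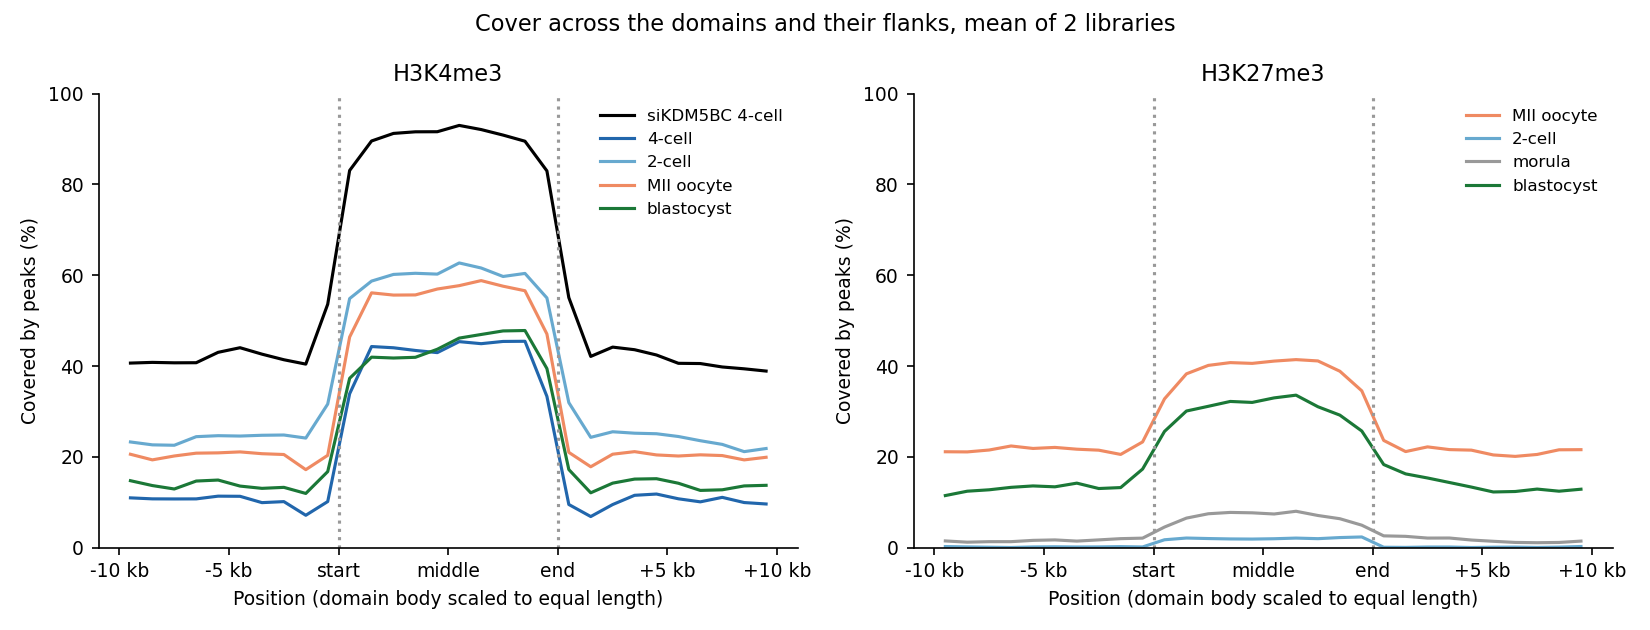
Percentage covered by peaks at each position of the 904 domains (body scaled to equal length between the dotted lines) and in the 10 kb on either side, as means of 2 libraries. siKDM5BC 4-cell embryos stand above the other groups drawn, both inside the domains and in the flanks, and H3K27me3 of MII oocytes and blastocysts is highest inside.

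Of the 6 domains with the largest difference, which was the reason they were chosen, 4 had no H3K4me3 peak in either untreated 4-cell library and full cover in both siKDM5BC libraries. They lay in UPK3BL2 (chromosome 3, 9857064 to 9862656), at CLCA1, a gene of a secreted regulator of chloride channels (chromosome 4, 129653183 to 129658681), near C14H10orf90 (chromosome 14, 135705433 to 135710689) and 118086 bp from the growth factor gene FGF9 (chromosome 11, 1700025 to 1705238). All 4 had no H3K4me3 peak from the 4-cell stage to the blastocyst. In 2-cell embryos their covered shares ranged from 19.3% (UPK3BL2, replicate 2) to 98.9% (near C14H10orf90, replicate 1). At DPYSL5, which encodes a neuronal protein of axon guidance, siKDM5BC libraries covered 98.2% and 98.7%, against 0% in both untreated 4-cell libraries.

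At WEE2 and KDM5B the difference was below the average of 47.2 points. The domain of WEE2, an oocyte kinase that keeps meiosis arrested (chromosome 18, 8195588 to 8201154), was covered to 42.9% and 33.3% in siKDM5BC embryos, against 0% in both untreated 4-cell libraries. Before that it had 29.9% and 51.4% in MII oocytes, 0% and 53.3% in 1-cell and 3.27% and 2.9998% in 2-cell embryos, and no H3K4me3 from the 4-cell stage on. The domain at KDM5B itself (chromosome 10, 24829545 to 24835716) was covered to 65.0% and 98.6% in siKDM5BC embryos and to 76.0% and 50.6% in untreated 4-cell embryos, values that overlap. It was at 99.0% and 99.9% in 8-cell embryos and at 100% in morulae and blastocysts. Transcripts were not measured in these libraries, so the loss of KDM5B and KDM5C was not checked here.

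Domains at gene ends and far from genes were then compared. Within 1 kb of an end of a protein-coding gene lay 548 domains (60.6%, against 9.04% of tiles), called gene-end domains, while 283 (31.3%, against 83.3% of tiles) were distal, more than 5 kb from every such end, and 73 lay between. The wide GV replicate 1 peaks that failed the cover rule were near these shares, at 56.1% gene-end and 38.0% distal. The annotation used here has no strand, so starts and ends of genes were treated alike. Gene-end and distal domains had like widths, with medians of 6203 and 6047 bp.

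In blastocysts the gene-end domains were covered to 54.8% and 55.2% and the distal domains to 22.5% and 23.3%. Of gene-end domains 293 of 548 (53.5%, against 11.02% of gene-end tiles) were held in blastocysts and 38 emptied. Of distal domains 48 of 283 (17.0%, against 1.18% of distal tiles) were held and 142 (50.2%) emptied. Over all classes 84.7% of tiles were emptied in blastocysts, and emptied tiles were not counted by class. The gap was also seen at earlier stages, at 20.7 points in 4-cell embryos and 15.5 points in 1-cell embryos, but not in MII oocytes, where gene-end domains were covered to 43.3% and 63.0% and distal domains to 47.4% and 68.0%.

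Over the 7 stages after GV the gene-end share exceeded the distal share by 18.6 points on average, with 6 of 7 stage means positive and MII oocytes at −4.59 points. This did not pass after adjustment (two-sided exact sign-flip permutation test, p = 0.03125, BH 0.075). When the members were taken from GV replicate 2 and checked in replicate 1, the difference was 17.4 points and passed (exact p = 0.0156, BH 0.0469).

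In siKDM5BC embryos the gap was not seen. Gene-end domains were covered to 90.2% and 88.4% and distal domains to 90.6% and 89.4%, a difference of −0.70 points, against 20.7 points in untreated 4-cell embryos. Of distal domains 263 of 283 (92.9%) were held in siKDM5BC embryos and 25 (8.83%, against 0.0173% of distal tiles) in untreated 4-cell embryos. Of gene-end domains 512 of 548 (93.4%) were held in siKDM5BC embryos and 166 (30.3%, against 1.12% of gene-end tiles) in untreated ones. Over all classes, 3.79% of tiles were held in siKDM5BC embryos. The covered share is capped at 100%, and with peaks of −log10 q 3 or more a gap was seen in siKDM5BC embryos as well, at 84.4% and 82.2% for gene-end and 67.5% and 65.5% for distal domains. The difference between the 2 gaps was not tested.

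**Figure D4:**
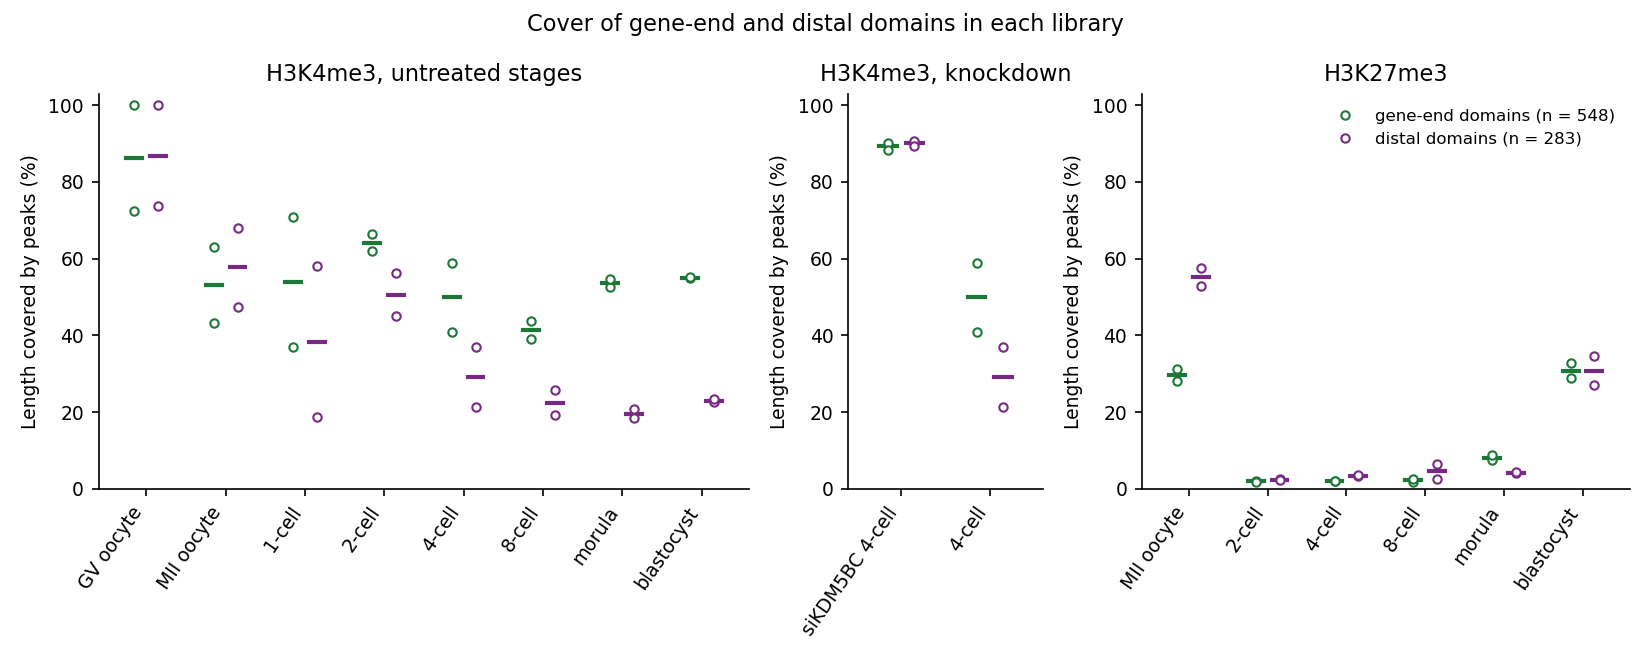
Covered share of the 548 gene-end domains (green) and the 283 distal domains (purple) in each library (circles), with means of 2 libraries (bars). On average gene-end domains lie above distal ones from the 1-cell stage on and most in morulae and blastocysts, both classes lie near 90% in siKDM5BC embryos, and H3K27me3 in MII oocytes is higher over distal domains.

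The 6 widest domains with no H3K4me3 peak in blastocysts, chosen for that value, lay in or near CDH4, COL18A1, MSX1, LOC110261077, PRDM16 and LRRC27, and 5 of the 6 were distal. The domain inside CDH4, a cadherin gene (chromosome 17, 61307329 to 61320563), was covered by H3K4me3 to 33.9% and 73.3% in MII oocytes, 46.8% and 26.9% in 2-cell embryos, 46.8% and 14.98% in 4-cell embryos, 9.18% and 37.7% in 8-cell embryos and 0% in morulae and blastocysts. In siKDM5BC embryos it was covered to 95.7% and 96.0%. H3K27me3 covered it to 93.7% and 89.5% in MII oocytes and to 69.5% and 56.5% in blastocysts. The domain in PRDM16, a gene of a transcription regulator (chromosome 6, 64762590 to 64771786), had 30.3% and 76.3% in MII oocytes, 48.2% and 44.6% in 2-cell embryos and 0.794% and 1.11% in 4-cell embryos, against 100% and 89.9% in siKDM5BC embryos.

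The domains lay toward the ends of chromosomes. Within 5 Mb of an end were 326 of 904 (36.1%, against 7.82% of tiles). In the outermost 1 Mb there were 36.8 domains per 10 Mb, and farther than 20 Mb from an end 2.21 per 10 Mb. Chromosomes 13 to 18 are acrocentric in the pig. Chromosomes 13 to 17 had no domain within 5 Mb of their start and 9 to 24 within 5 Mb of their last peak, and chromosome 18 had 4 and 2.

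The domains within 5 Mb of an end, called outer here, were compared with the inner ones as values with no test. Outer domains had higher H3K27me3 shares in MII oocytes and lower H3K4me3 shares at every untreated stage from the 1-cell embryo on. In the 1-cell libraries H3K4me3 covered 14.7% and 59.9% of the outer domains, against 39.2% and 70.1% of the inner ones. In blastocysts H3K4me3 covered 25.6% ± 0.636 of the outer domains and 53.7% ± 0.237 of the inner domains, and in morulae 20.2% ± 1.76 and 53.4% ± 1.34 (SD, n = 2 each). In both MII libraries the H3K4me3 share was higher in outer than in inner domains, at 48.1% against 43.4% and 70.6% against 61.2%. In siKDM5BC embryos 96.0% ± 0.367 of the outer and 85.8% ± 1.40 of the inner length was covered. H3K27me3 in MII oocytes covered 57.5% ± 3.79 of the outer and 28.3% ± 1.98 of the inner domains. Distance and class overlap in part: 151 of the 326 outer domains were distal and 132 of the 578 inner ones. Among gene-end domains alone, blastocyst H3K4me3 was 40.2% ± 0.795 in the 140 outer and 60.3% ± 0.132 in the 408 inner ones, and among distal domains alone 13.5% ± 0.294 in the 151 outer and 33.9% ± 0.904 in the 132 inner ones.

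**Figure D5:**
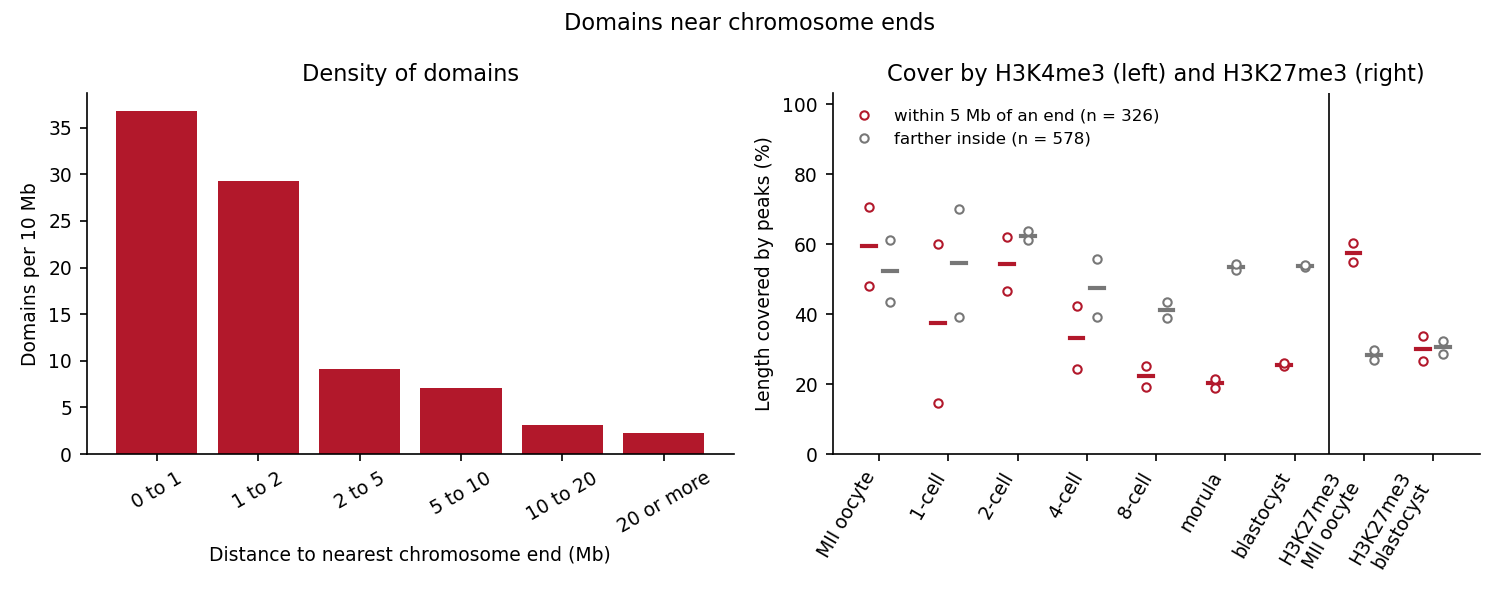
Left, number of domains per 10 Mb of chromosome by distance to the nearest end. Right, covered share in each library (circles; bars are means of 2 libraries) for the 326 domains within 5 Mb of an end (red) and the 578 farther inside (grey), H3K4me3 left of the line and H3K27me3 right of it. Density falls from 36.8 to 2.21 per 10 Mb, and the outer domains are less covered by H3K4me3 in morulae and blastocysts and more by H3K27me3 in MII oocytes.

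H3K27me3 lay over many of the same domains in MII oocytes, was almost gone from the 2-cell to the 8-cell stage and was back in part in blastocysts. The libraries covered 40.8% and 37.1% of domain length in MII oocytes, 2.13% and 2.01% in 2-cell, 2.34% and 2.52% in 4-cell and 2.11% and 3.94% in 8-cell embryos, 6.33% and 7.29% in morulae and 27.8% and 32.9% in blastocysts. The rest of the chromosomes was covered to 2.94% and 2.54% in MII oocytes, 0.0816% and 0.04998% in 2-cell embryos and 3.36% and 4.25% in blastocysts. Both MII and both blastocyst libraries lay above every library of the 4 stages between.

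The covered share passed its test across the 6 stages, with a range of 36.9 points from 2-cell embryos to MII oocytes (one-sided permutation test of F, 12 libraries, p = 0.00092, BH 0.00552). MII oocytes and blastocysts averaged 34.7%, against 3.59% for the stages from 2-cell to morula, a difference of 31.1 points (two-sided exact permutation test of the 6 stage means, p = 0.0667, the lowest this design can give; BH 0.133). This split of the stages was chosen with the earlier result known that H3K27me3 covers most in MII oocytes and blastocysts. Its p is therefore a description only. Without the 6 regions covered in every library, the 2-cell share was 0.531% ± 0.0874, against 2.07% ± 0.0850 with them (SD, n = 2 each). The 4-cell share was 0.903% ± 0.133 without them and the 8-cell share 1.54% ± 1.27, against 2.43% and 3.03% with them.

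Enrichment of H3K27me3 in the domains ranged over 3.47 log2 units, from 1.34 ± 0.38 in 4-cell embryos to 4.81 ± 0.37 in 2-cell embryos, and passed (one-sided permutation test of F, p = 0.00248, BH 0.00992). Leaving out 1 library gave BH values from 0.0016 to 0.0752, and the call held in 2 of 12 cases, without 8-cell replicate 1 or 2. Leaving out any 1 of the MII, 2-cell, 4-cell, morula or blastocyst libraries ended it, with 0.0752 without 4-cell replicate 2. With all domains, enrichment averaged 3.41 in MII oocytes and blastocysts, against 3.04 for the stages from 2-cell to morula. This difference of 0.37 did not pass (two-sided exact permutation test of the 6 stage means, p = 0.733, BH 0.771). Without the 6 regions covered in every library the order of the stages was another. MII oocytes were then highest, at 3.79 ± 0.05, and 2-cell embryos were at 2.86 ± 0.20, 4-cell embryos at −0.09 ± 0.24, 8-cell embryos at 1.07 ± 0.46, morulae at 3.5003 ± 0.07 and blastocysts at 2.95 ± 0.06, a range of 3.88 that passed (BH 0.00048).

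MII oocytes held H3K27me3 on 315 domains (34.8%, against 1.22% of tiles) and 378 were emptied (41.8%, against 90.9% of tiles). Emptied domains were 886 in 2-cell embryos (98.01%, tiles 99.6%), 870 in 4-cell embryos (96.2%, tiles 94.1%), 834 in 8-cell embryos (92.3%, tiles 95%), 731 in morulae (80.9%, tiles 97.4%) and 350 in blastocysts (38.7%, tiles 86.3%). Held domains were 8 in 2-cell embryos (0.885%, tiles 0.000887%), 10 in 4-cell embryos (1.11%, tiles 0.0315%), 9 in 8-cell embryos (0.996%, tiles 0.0224%), 18 in morulae (1.99%, tiles 0.0559%) and 175 in blastocysts (19.4%, tiles 1.27%). Of the domains held at each of these stages, 6 were the regions covered in every library. In 8-cell replicate 2 alone 15 domains were at least 50% covered, against 9 in replicate 1. Of the 315 domains of MII oocytes, 79 were also held in blastocysts, against 175 (19.4%) of all 904. The 79 include the 6 regions covered in every library.

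Distal domains carried more H3K27me3 than gene-end domains in MII oocytes. Gene-end domains were covered to 31.3% and 28.2% and distal domains to 57.6% and 52.9%. In blastocysts the classes overlapped, at 28.7% and 32.8% for gene-end and 27.1% and 34.6% for distal domains. Over the 6 stages the mean difference was −4.30 points and did not pass (two-sided exact sign-flip permutation test, p = 0.469, BH 0.583).

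Both marks were held on 142 domains in MII oocytes (15.7%, against 0.152% of tiles). Of these 67 were distal (23.7% of distal domains, against 0.131% of distal tiles) and 53 gene-end (9.67% of gene-end domains, against 0.272% of gene-end tiles). In blastocysts 73 domains held both (8.08%, against 0.201% of tiles). Of these 55 were gene-end (10.04% of gene-end domains, against 0.456% of gene-end tiles) and 12 distal (4.24% of distal domains, against 0.159% of distal tiles). At the stages between, 8 (2-cell; tiles 0.000665%), 10 (4-cell; tiles 0.00244%), 9 (8-cell; tiles 0.0151%) and 13 domains (morula; tiles 0.0233%) held both. Without the 6 regions covered in every library these counts were 2, 4, 3 and 7.

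Domains with and without H3K27me3 in MII oocytes were set side by side. The 315 domains that held H3K27me3 in MII oocytes were covered by H3K4me3 to 30.3% and 30.9% in blastocysts, and the 378 emptied of it to 53.5% and 53.9%. In siKDM5BC embryos the order was the other way, with 96.7% and 95.2% in the H3K27me3 domains and 83.02% and 81.3% in the emptied ones, as it was in MII oocytes, with 52.4% and 74.1% against 37.7% and 54.3%. Among gene-end domains alone the blastocyst values were 45.3% and 45.3% in 128 H3K27me3 domains and 60.5% and 60.9% in 281 emptied ones, and among distal domains alone 16.3% and 17.4% in 151 and 32.3% and 33.5% in 75. These are values of domains within the same libraries, and no test was made.

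Genes with a domain at an end were counted by list. Of 18722 coding genes on chromosomes 1 to 18, 699 (3.73%) had a domain within 1 kb of an end. Of 92 genes of a list of developmental transcription factors 35 (38.0%) did, among them HOXA10 and HOXA9, which pattern the trunk, and TBX1, LHX5, LHX9, PAX6, SOX9 and SIX3, which act in organ formation. None of 54 ribosomal protein genes and none of 20 maternal-effect genes had one. Counts of other lists were 4 of 15 for trophectoderm (CDX2, GATA2, TFAP2A, TFAP2C), 3 of 12 for hypoblast (FOXA2, GATA6, PDGFRA), 2 of 20 for pluripotency (OTX2, TBX3), 2 of 16 for oocyte and zona genes (LHX8, WEE2), 2 of 18 for cumulus and granulosa genes (FOXL2, INHBB), 3 of 18 for H3K4 methylation enzymes (KDM2B, KDM5B, SETD1B), 1 of 23 for imprinted genes (GNAS) and 1 of 7 for genome activation genes (KDM5B).

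The 35 domains at the developmental factors were close to other gene-end domains in H3K4me3 of blastocysts and above them in H3K27me3, as values with no test. H3K4me3 covered 53.3% ± 0.187 of them in blastocysts, against 53.9% ± 0.324 in 491 gene-end domains at no listed gene (SD, n = 2 each). H3K27me3 covered 63.7% ± 5.05 in blastocysts, against 28.0% ± 2.68 in those 491 domains, and 42.9% ± 2.62 in MII oocytes, against 28.3% ± 2.23. All 35 were held in siKDM5BC embryos and 16 (45.7%) in untreated 4-cell embryos, while of those 491 domains 457 (93.1%) were held in siKDM5BC embryos and 138 (28.1%) in untreated 4-cell embryos. The widest, at the homeobox gene LHX5 (chromosome 14, 38438672 to 38455717), had H3K27me3 over 52.7% and 36.7% in MII oocytes, 0% from the 2-cell to the 8-cell stage, 14.02% and 22.1% in morulae and 98.8% and 90.2% in blastocysts. Its H3K4me3 was 82.3% and 80.8% in 2-cell embryos and 39.4% and 42.5% in blastocysts, and 100% and 92.9% in siKDM5BC embryos, against 48.6% and 38.2% in untreated 4-cell embryos.

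The 10 domains at genes of the first lineages, the trophectoderm, hypoblast and pluripotency lists, had higher H3K4me3 shares in morulae and blastocysts than the 491 gene-end domains at no listed gene, as values with no test. H3K4me3 covered 55.8% ± 12.1 of them in MII oocytes, 49.6% ± 6.74 in 8-cell embryos, 85.9% ± 0.654 in morulae and 88.8% ± 1.09 in blastocysts (SD, n = 2 each), and all 10 were held in morulae and in blastocysts. Of the 491 domains it covered 52.3% ± 1.31 in morulae and 53.9% ± 0.324 in blastocysts, and 237 (48.3%) and 255 (51.9%) were held there. H3K27me3 covered 59.6% ± 2.18 of them in MII oocytes, 0% in 2-cell and 4-cell embryos and 28.0% ± 3.51 in blastocysts.

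Among them, the domain at GATA6, a factor of the hypoblast (chromosome 6, 107278071 to 107292384), was covered by H3K4me3 to 45.4% and 67.9% in MII oocytes, 54.8% and 28.7% in 2-cell embryos, 66.5% and 68.9% in 8-cell embryos and 100% in both morula and both blastocyst libraries. At CDX2, a factor of the trophectoderm (chromosome 11, 5337859 to 5349653), it was 56.4% and 77.9% in MII oocytes, 28.6% and 36.7% in 8-cell embryos and 82.3% and 79.4% in blastocysts, and 100% in both siKDM5BC libraries, against 58.1% and 28.3% in untreated 4-cell embryos. At TFAP2C, another trophectoderm factor (chromosome 17, 57160168 to 57166994), H3K4me3 was 83.1% and 93.2% in MII oocytes, 58.0% and 99.8% in 1-cell embryos and 96.3% or more in every H3K4me3 library of later stages. H3K27me3 at CDX2 was 56.3% and 66.2% in MII oocytes and 0% and 21.6% in blastocysts.

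Of chromatin genes, the domains at JARID2, a cofactor of Polycomb repressive complex 2 (chromosome 7, 11357856 to 11363121), and at SETD1B, an H3K4 methyltransferase (chromosome 14, 30884245 to 30892743), were both fully covered by H3K4me3 in morulae and blastocysts. At JARID2 the MII libraries had covered 24.6% and 51.4% and at SETD1B 54.3% and 53.0%. The JARID2 domain was 50.15% covered in GV replicate 2, close to the edge of the rule. Full cover was not general: among the 3 domains of the H3K4 methylation enzyme list, the lowest mean share was 40.2% in morulae and 44.6% in blastocysts. At GNAS, an imprinted gene (chromosome 17, 58983892 to 58989711), H3K4me3 was 10.03% and 100% in the 1-cell libraries and 36.3% and 62.9% in blastocysts, where H3K27me3 covered 61.7% and 59.3%.

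Neighbouring sets of GV oocyte peaks give the scale. Of the 602 peaks of 5 kb or wider that failed the cover rule in GV replicate 2, fewer were held, with 397 (65.9%) in siKDM5BC embryos, 23 (3.82%) in untreated 4-cell embryos and 182 (30.2%) in blastocysts. Of 7064 replicated peaks of 2 to 5 kb, 6207 (87.9%) were held in siKDM5BC embryos, 2107 (29.8%) in untreated 4-cell embryos and 3698 (52.3%) in blastocysts. A narrower peak needs less covered length to be held, so these counts are not of like size, and the differences were not tested.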

How the data were processed

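Each library had 1 deposited list of broad peaks, called per library. Bowtie2 2.4.1, MACS2 and the build susScr11 are named per the submitters' processing notes; the MACS2 version, any input control, the calling threshold and read filters are not given in the sources used here. Per the file layout, the deposited signal column is a fold enrichment (a ratio over the caller's background), and 2 further deposited columns hold the caller's −log10 of p and of q as the authors gave them. The deposited score was not used. Positions are deposited 0-based and printed 1-based.

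Peaks of a library were merged, and the covered base pairs of each domain, of the rest of chromosomes 1 to 18 and of 5 kb tiles were counted (Python 3.11.15, numpy 2.4.6, pandas 2.3.3, scipy 1.17.1). A more strictly called list covers less, so minima on peak strength were tried as alternatives. The 12 tests (permutation tests of F with 100000 random assignments and seed 1, and exact permutation tests) formed 1 BH family at 0.05. The permutation test of F was tried on simulated data, and the exact tests were not. Gene positions came from the RefSeq table of the same assembly, without strand.

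The members, gene lists and tests were chosen with earlier results of these data known. Domains named in the text are the 8 widest, the 6 with the highest H3K4me3 share after GV, the 6 widest without blastocyst H3K4me3, the 6 highest in MII H3K27me3, the 6 with the largest siKDM5BC difference, and up to 4 a gene list, of which those the results turn on are described. Replicate numbers did not pair the libraries. Peaks outside chromosomes 1 to 18 entered no test (chromosome X is described once), and sequences were not used here. The count of 1 gene list and 1 named domain are not reported here.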

Additional observations from a re-analysis of the deposited data

Results flagged for a closer look

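Data outside the main comparisons held the same kind of region: 54 peaks on chromosome X passed the same width and cover rule in GV oocytes. Their H3K4me3 cover was 88.4% and 89.7% in siKDM5BC 4-cell embryos, against 34.5% and 25.7% in untreated 4-cell embryos. It was 2.37% and 52.2% in the 1-cell libraries, the widest gap between replicates of any group, and 32.7% and 34.95% in blastocysts. H3K27me3 covered 59.2% and 54.7% of these X regions in MII oocytes and 34.5% and 43.2% in blastocysts.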

How the results depend on the processing

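Each of the 12 tests and 4 counts of held domains was repeated under other settings. Outside the repeats that leave out libraries there were 178 values, of which 160 kept direction and side of the threshold or stayed within 1.5 times the count. H3K27me3 enrichment across stages no longer passed with a width minimum of 10 kb (3.61, BH 0.104) and with 75% cover in GV replicate 2 (3.60, BH 0.075). H3K27me3 enrichment of MII oocytes and blastocysts against 2-cell to morula turned to −1.16 with 10 kb, −0.40 with 75% cover and −1.02 with −log10 q of 3 or more, and the H3K27me3 gene-end minus distal difference to 1.90 points with 10 kb. With −log10 q of 3 or more, H3K4me3 share across stages passed (38.7 points, BH 0.013) and the difference of 4-cell to blastocyst against MII to 2-cell was 30.7 points; with fold 3.5 it was 13.3 points. Members from GV replicate 2 gave a passing gene-end minus distal difference (17.4 points, BH 0.0469) and 26.0% held in blastocysts. Held in 4-cell embryos were 10.5% with −log10 q of 3 or more, 54.3% with a bar of 25% and 5.42% with 75%; in blastocysts 61.4% and 19.1%; for H3K27me3 in MII oocytes 12.1% with the q minimum and 21.2% with 75%. Tiles of 10 kb held 0.0182% in 4-cell embryos and 1.37% in blastocysts. The cause of these changes was not tested.

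Leaving out libraries, H3K4me3 share across stages ranged from 21.6 to 32.2 points and enrichment from 1.55 to 1.81; H3K27me3 share from 35.04 to 38.8 points and enrichment from 3.20 to 3.74. The H3K4me3 differences of 4-cell to blastocyst against earlier stages were −23.1 to −4.60 points and −0.19 to −0.12 in enrichment, the share extremes without replicate 1 or 2 of every group. siKDM5BC differences were 38.6 to 55.8 points and −1.06 to −0.80, H3K27me3 contrast values 29.8 to 32.4 points and 0.15 to 0.59, and gene-end minus distal differences 18.1 to 19.1 points (H3K4me3) and −4.64 to −3.96 points (H3K27me3). Held domains were 23.5% to 47.2% (4-cell), 41.7% to 42.4% (blastocyst), 94.8% to 95.9% (siKDM5BC) and 36.2% to 40.6% (H3K27me3 in MII oocytes). Tests of F could not be fitted without replicate 1 or 2 of every group.

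Libraries with the same replicate number did not deviate together (r from −0.19 to 0.07 over 28 pairs of H3K4me3 groups and from −0.07 to 0.14 over 15 of H3K27me3). With the replicate block no call changed: H3K4me3 enrichment ranged over 1.68 (BH 0.0072), H3K4me3 share over 25.2 points (BH 0.609), H3K27me3 share over 36.9 points and enrichment over 3.47 (BH 0.023 each), and siKDM5BC minus untreated 4-cell was 47.2 points (exact p = 0.5, the lowest possible). The repeat without the 6 regions covered in every library, chosen after seeing the data, changed no call. Depth is unknown, so weak marks missed by a list cannot be told from absent ones.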

Other observations

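Domains were spread unevenly over chromosomes. Chromosome 12 had 13.3 domains per 10 Mb and 18.2 coding genes per Mb, and chromosome 13 had 1.39 domains per 10 Mb and 6.04 coding genes per Mb. Another domain lay within 50 kb of 264 of the 904.

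The domain 44946 bp from OSBPL8 (chromosome 5, 39789602 to 39799722) was covered by H3K4me3 to 73.7% and 100% in MII oocytes, 18.2% and 19.9% in 1-cell, 26.2% and 42.5% in 2-cell, 100% and 59.5% in 4-cell, 73.6% and 90.4% in 8-cell embryos, 28.8% and 34.2% in morulae and 100% in blastocysts. H3K27me3 covered it to 100% in MII oocytes, 21.6% and 21.3% in 2-cell, 84.2% and 86.2% in 4-cell, 80.5% and 84.3% in 8-cell embryos, 26.5% and 50.4% in morulae and 100% in blastocysts. In 4-cell embryos 96.2% of domains were emptied of H3K27me3.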
